A study of Mus musculus with 10 samples.

Results

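Rora, the cytokine genes Il17a, Il17f, Il22 and Il21 and the receptor genes Il23r and Il1r1 were followed in regulatory T cells that carried or lacked the transcription factor Maf. The 7 genes were picked by symbol, as a ROR factor, cytokines of T helper 17 (Th17) cells and receptors for the signals that act on such cells, and they are 7 of the 27179 genes counted. RNA had been sequenced from CD4+ TCRb+ YFP+ cells of C57BL/6 mice, sorted from gut or spleen. Control mice (WT) carried Foxp3Cre-YFP, and the others (Maf-KO) carried it together with Maf fl/fl, so the Cre and its YFP reporter were shared by all groups and deletion was directed to cells that express Foxp3, the factor that defines regulatory T cells. Each genotype has 2 gut libraries and 3 spleen libraries. The labels give no age, and they do not say that replicates came from separate mice, so p-values measure only the spread between these samples. The title of the series places the study in the control of intestinal Th17 cells by Maf-dependent regulatory T cells.

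Th17 cells are CD4 T cells that defend the gut and other barriers against bacteria and fungi. Transcription factors of the ROR family drive the genes for IL-17A, IL-17F and the IL-23 receptor, IL-23 and IL-1 reinforce the state through the receptors encoded by Il23r and Il1r1, and IL-21 acts on the T cells that make it and on B cells. Part of the regulatory T cells of the gut share ROR-driven genes with Th17 cells, and Maf is a bZIP factor expressed in both kinds of cell.

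Library totals were 8567035 to 13983965 counts. For Maf, gut held 859 and 918 counts in WT against 7 and 3 in Maf-KO, and spleen 337, 312 and 484 against 2, 10 and 2, so the targeted gene went with the label in every library. The 9 markers of regulatory T cells were detected in every library, with a summed level of 9773 to 11030 CPM (counts as a share of the scaled library total) in gut and 4558 to 5249 CPM in spleen. Markers of other cells were present too. The summed level of 8 B and plasma cell markers was 6449 and 2096 CPM in WT gut replicates 1 and 3 and 3459 and 1178 CPM in Maf-KO gut replicates 2 and 3, against 194 to 462 CPM in spleen. For 8 pancreatic acinar markers it was 160 and 36.8 CPM in WT gut and 15.8 and 27.3 CPM in Maf-KO gut, where 6 of the 8 were at 0 in both libraries. In spleen it was 6.39 to 25.8 CPM, with the highest sum in Maf-KO replicate 1, where 1 of the 8 was at 0. In WT spleen replicate 1 (11.4 CPM) 2 of the 8 were at 0, and in every other spleen library 6 of the 8.

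All 7 genes have a promoter window in the RefSeq table for GRCm38.p6, with 8 windows in all. The stretches of 250 bases before the transcript starts of Il17a, Il17f and Il23r are shown because these are the windows that hold AGGTCA, the core sequence recognised by ROR factors and other nuclear receptors. TGCTGA, the core of the element bound by Maf proteins, was searched as well, both on either strand, and matches are in capitals. The windows are chr1:20730655-20730904 on the plus strand for Il17a, chr1:20784271-20784520 on the minus strand for Il17f and chr6:67491856-67492105 on the minus strand for Il23r, and none overlaps an annotated exon.
Il17a: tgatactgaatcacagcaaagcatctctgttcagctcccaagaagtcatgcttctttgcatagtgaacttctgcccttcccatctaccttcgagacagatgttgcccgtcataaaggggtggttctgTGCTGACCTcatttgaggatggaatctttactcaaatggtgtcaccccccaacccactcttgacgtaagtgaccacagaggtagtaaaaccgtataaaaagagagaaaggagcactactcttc
Il17f: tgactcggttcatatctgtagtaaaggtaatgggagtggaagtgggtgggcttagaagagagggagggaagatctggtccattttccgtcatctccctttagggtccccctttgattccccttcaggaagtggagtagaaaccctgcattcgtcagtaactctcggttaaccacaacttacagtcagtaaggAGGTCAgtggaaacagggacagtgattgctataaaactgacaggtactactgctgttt
Il23r: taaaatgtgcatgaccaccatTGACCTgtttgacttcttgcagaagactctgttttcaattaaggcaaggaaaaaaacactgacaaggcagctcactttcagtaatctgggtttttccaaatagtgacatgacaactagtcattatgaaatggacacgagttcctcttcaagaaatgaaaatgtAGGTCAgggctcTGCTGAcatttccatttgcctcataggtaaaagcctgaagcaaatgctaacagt
In Il17a, TGCTGA begins 123 bases and the reverse complement of AGGTCA 120 bases before the start, so the matches overlap. Il17f holds AGGTCA from 58 bases before the start. Il23r holds it from 66 bases, its reverse complement from 229 bases and TGCTGA from 54 bases before the start. TGCTGA is also in the window of Il21, 234 bases before the start, and in 1 of the Il1r1 windows, 132 bases before it, while neither motif was found in the windows of Rora and Il22. Of 32851 promoters of this length, 4607 (14%) hold AGGTCA, 16.1% hold TGCTGA and 2.63% hold both. A match of so few letters describes the sequence and does not mark a bound site.

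Rora encodes a nuclear receptor of the ROR family and was by far the most abundant of the 7 genes. It lies at chr9:68653404-69388246 (GRCm38). Its counts were 4902 and 4112 in WT gut, 8004 and 9459 in Maf-KO gut, and in spleen 705, 766 and 586 for WT against 609, 553 and 779 for Maf-KO. Scaled, this was 616 and 487 CPM in WT gut, 697 and 755 CPM in Maf-KO gut, 62.7, 59.0 and 55.6 CPM in WT spleen and 66.1, 60.9 and 75.9 CPM in Maf-KO spleen. Every gut library was above every spleen library, and both Maf-KO gut libraries were above both WT gut libraries, while the spleen genotypes overlapped. In bulk samples, fewer cells that express a gene and less RNA per cell cannot be told apart. Rora overlaps 5 long noncoding gene models, 1 of which is in the count table, and the strand setting of the counting is not given in the sources used here.

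Il17a and Il17f encode the related cytokines IL-17A and IL-17F, which act on epithelial and stromal cells, and their genes lie 42.6 kb apart on chromosome 1 (chr1:20730905-20734496 and chr1:20777146-20785274). Il17a had 64 and 27 counts in WT gut, 54 and 136 in Maf-KO gut, and 0 in all 6 spleen libraries. This was 8.05 and 3.20 CPM in WT gut and 4.70 and 10.9 CPM in Maf-KO gut. Il17f had 26 and 13 counts in WT gut (3.27 and 1.54 CPM), 19 and 47 in Maf-KO gut (1.65 and 3.75 CPM), and 1 count in all of the spleen, in Maf-KO replicate 3. For both genes the highest and the lowest gut libraries were Maf-KO replicate 3 and WT replicate 3, with the other two between them, so the genotypes overlapped. A count of 0 in a spleen library allows a level of up to 3 counts, which is 0.231 to 0.331 CPM in the spleen libraries.

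Il22 encodes IL-22, which acts on epithelial cells to strengthen the barrier, and lies at chr10:118204584-118210047. It had 115 and 71 counts in WT gut (14.5 and 8.40 CPM), 160 and 296 in Maf-KO gut (13.9 and 23.6 CPM), and 1 count in all of the spleen, in WT replicate 1. The gut genotypes overlapped, since WT replicate 1 was above Maf-KO replicate 2. Iltifb, a near-identical copy of Il22, had 0 and 5 counts in WT gut, 11 and 13 in Maf-KO gut and 1 in spleen, and how reads were divided between the copies is uncertain.

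Il21 encodes IL-21 and lies at chr3:37222759-37232636. It differed from the other 6 genes in its distribution, because 2 of the 3 WT spleen libraries were above both WT gut libraries. Its counts were 18 and 49 in WT gut (2.26 and 5.80 CPM), 6 and 26 in Maf-KO gut (0.522 and 2.08 CPM), 72, 12 and 83 in WT spleen (6.41, 0.924 and 7.88 CPM), and 10, 0 and 0 in Maf-KO spleen. WT gut was above Maf-KO gut in both libraries, while Maf-KO spleen replicate 1 (10 counts, 1.09 CPM) was above WT spleen replicate 2.

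Il23r encodes the subunit that gives the IL-23 receptor its specificity, and lies at chr6:67422932-67491855. It had 198 and 99 counts in WT gut (24.9 and 11.7 CPM) and 74 and 105 in Maf-KO gut (6.44 and 8.39 CPM). Spleen held 5, 0 and 4 counts of it in WT (up to 0.445 CPM) and 19, 6 and 0 in Maf-KO (up to 2.06 CPM). Both WT gut libraries were above both Maf-KO gut libraries, with no overlap, and the spleen genotypes overlapped. Il1r1 encodes the signalling receptor for IL-1 and lies at chr1:40222480-40316201. It had 174 and 106 counts in WT gut (21.9 and 12.5 CPM) and 242 and 670 in Maf-KO gut (21.1 and 53.5 CPM). Spleen held 9, 6 and 6 counts of Il1r1 in WT (0.801, 0.462 and 0.570 CPM) and 9, 19 and 12 in Maf-KO (0.977, 2.09 and 1.17 CPM). Il1r1 in Maf-KO gut replicate 2 was within the WT gut range and replicate 3 was above it, and all 3 Maf-KO spleen libraries were above all 3 WT ones.

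**Figure D1:**
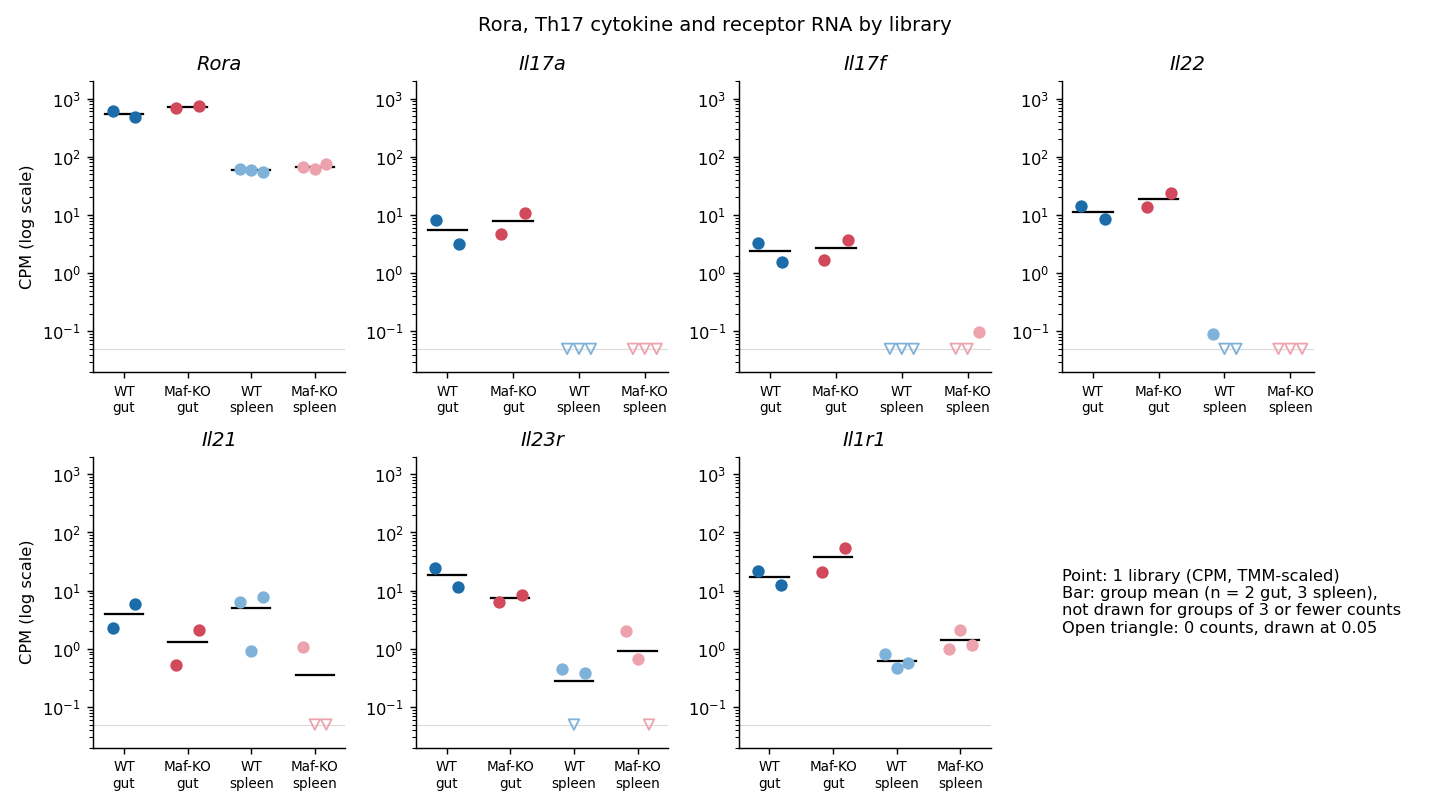
Level of each gene in each library on a log scale of CPM, with groups on the horizontal axis, filled points for libraries, bars for group means and open triangles for libraries with 0 counts. Rora stands at 487 to 755 CPM in gut and 55.6 to 75.9 CPM in spleen, and Il21 is the gene whose WT spleen libraries reach 7.88 CPM.

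Per length, on the authors' log2 FPKM values made linear, the order of the genes in WT gut was Rora (272 and 362 FPKM in the 2 libraries), Il22 (7.14 and 12.9), Il23r (4.35 and 9.68), Il17a (2.54 and 6.66), Il1r1 (2.30 and 4.20), Il17f (1.22 and 2.70) and Il21 (0.720 and 1.75), by their means and with the lower library first. Rora stood apart from all others in both libraries, while the ranges of each further neighbouring pair overlapped. In Maf-KO gut the order was Rora (395 and 424 FPKM), Il22 (11.96 and 20.1), Il1r1 (3.91 and 9.83), Il17a (3.76 and 8.596), Il23r (2.42 and 3.13), Il17f (1.33 and 2.97) and Il21 (0.167 and 0.633). Il23r moved from the third to the fifth place. Here the ranges of Il22 and Il1r1, of Il17a and Il23r, and of Il17f and Il21 did not overlap. Those of Il1r1 and Il17a, and of Il23r and Il17f, did. Within each single gut library the order of its genotype held, except that Il21 was above Il17f in WT gut replicate 3.

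The comparison of gut with spleen asks how far the genes belong to the gut cells. In WT, 6 of the 7 genes were higher in gut (edgeR quasi-likelihood test, adjusted p under 0.05), where 14.7% of all 13214 genes tested were called higher and 28% were called in either direction. Rora was higher by 3.22 on the log2 scale (SE 0.14, adjusted p = 4.35e-07) and Il1r1 by 4.80 (SE 0.50, adjusted p = 0.000113). Il23r was higher by 6.06 (interval 3.83 to 8.28, adjusted p = 0.00169). Il17a was at least 64.3-fold and Il17f at least 27.5-fold higher, against a floor of 3 counts over the spleen group (adjusted p = 0.0024 and 0.00189), and Il22 had a ratio of 394 with a counting interval of 69.9 to 15647 (adjusted p = 0.000109). The same 6 genes had no overlap between the tissues, as did 25.9% of all genes tested in the higher direction. Il17a, Il17f, Il22 and Il23r passed the filter on low counts through their gut libraries, so their calls could only go this way and their number is no support. Il21 showed a difference of -0.32 with an interval of -2.63 to 1.99 (adjusted p = 0.851).

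In Maf-KO the same comparison called 6 of 7 genes higher in gut, beside 14.4% of all genes called higher and 28.6% in either direction. Rora was higher by 3.42 (SE 0.14, adjusted p = 3.37e-07) and Il1r1 by 4.72 (SE 0.47, adjusted p = 8.63e-05). Il17a was at least 75.3-fold and Il22 at least 181-fold higher, and Il17f had a ratio of 78.5 with an interval of 13.6 to 3146 (edgeR adjusted p = 0.00205, 7.24e-05 and 0.00273). Il23r was higher by 3.04 (interval 1.07 to 5.01, adjusted p = 0.0277). Leaving out Maf-KO gut replicate 2 (adjusted p = 0.0626) or 3 (0.108) ended this call, as did leaving out replicate 2 of Maf-KO spleen (0.0811) and testing with DESeq2 (0.104). Over all alternatives for this gene the adjusted p was 0.00101 to 0.108. Again these 6 genes did not overlap between the tissues, beside 27.5% of all genes in the higher direction. Il17a, Il17f, Il22 and Il23r passed the filter on low counts through gut libraries, as for WT. Their calls and their lack of overlap could only go this way, and the numbers are no support. Il21 differed by 1.85 (interval -1.10 to 4.81, adjusted p = 0.335) and by 0.55 without Maf-KO gut replicate 3. Blocking on the number in the sample titles gave it an adjusted p of 0.00437, in a fit where Maf-KO spleen replicate 1 has no gut partner and adds nothing to this contrast and the remaining Maf-KO spleen libraries hold 0 counts. Over all other alternatives its adjusted p was 0.0684 to 0.874.

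Markers of other cells were read beside these tissue differences. The summed level of 6 innate lymphoid markers was 104 to 126 CPM in gut and 27.0 to 81.1 CPM in spleen, with none of the 6 at 0 in any library, and the gut sum was mostly Kit (527 to 1131 counts in gut, 33 to 53 in spleen). In both genotypes edgeR called 2 of the 6 higher in gut, Kit and Klrb1b, and 0 lower. The median log2 difference of the 6 was -0.48 in WT and -0.30 in Maf-KO. All marker calls given here stand beside 14.7% of all genes called higher in WT gut and 14.4% in Maf-KO gut. Ncr1, a defining receptor of natural killer and some innate lymphoid cells, had 4 to 7 counts in gut and 9 to 51 in spleen and was not called. The sum of 7 gamma-delta T cell markers was 17.2 to 26.0 CPM in gut and 15.2 to 25.8 CPM in spleen, and up to 2 of the 7 were at 0 in a library. Among them Trdc, the constant gene of the delta chain, had 21 to 46 counts in gut and 46 to 96 in spleen. Of the 4 tested, edgeR called Tcrg-C2 higher and Blk lower in WT gut. In Maf-KO gut it called Tcrg-C2 higher and Blk and Trdc lower. The sort was for CD4+ TCRb+ YFP+ cells, and innate lymphoid and gamma-delta T cells lack the TCR beta chain. Markers of B and plasma cells, which the sort does not select either, still summed to 1178 to 6449 CPM in gut. The sum of 8 gut epithelium markers was 138 to 174 CPM in gut and 32.0 to 68.0 CPM in spleen. Of these, Epcam (145.6 against 42.5 CPM, adjusted p = 0.00232) and Cdh1 (5.72 against 1.27 CPM, adjusted p = 0.0234) were called higher in WT gut by edgeR. In Maf-KO gut it called 3 of the 4 epithelial markers tested higher, Cdh1, Epcam and Krt19. At 0 were 1, 5, 0 and 2 of the 8 in WT gut replicates 1 and 3 and Maf-KO gut replicates 2 and 3. The part of innate lymphoid, gamma-delta T and epithelial cells in the gut levels of Il17a, Il17f and Il22 was not tested.

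The comparison of genotypes asks what the loss of Maf in these cells does to the genes. In gut, none of the 7 passed (edgeR quasi-likelihood test, 0 of 7), where 0.151% of all genes tested were called, and the numbers with an unadjusted p under 0.05 were 2 of 7 and 1076 of 13214. DESeq2 and limma-voom also called 0 of 7. Rora was 0.40 higher in Maf-KO on the log2 scale (SE 0.15, interval 0.068 to 0.73, edgeR adjusted p = 0.53), and its groups did not overlap. Without WT gut replicate 3 its difference was 0.24. Il1r1 was 1.12 higher (SE 0.45, interval 0.12 to 2.12, adjusted p = 0.578), and without Maf-KO gut replicate 3 the difference was 0.30. Il23r differed by -1.30 (SE 0.86, interval -3.21 to 0.61, adjusted p = 0.76). Without WT gut replicate 1 its difference was -0.65, and with the replicate number as a block it was -0.29. Il21 differed by -1.62 (interval -4.31 to 1.08, adjusted p = 0.789). Without Maf-KO gut replicate 3 its difference was -2.92, and without replicate 2 of that group -0.95. Without WT gut replicate 3 it was -0.78, and with the replicate number as a block -0.68.

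The cytokines showed no call in gut either, with intervals that leave room for changes in both directions. Il22 differed by 0.72 (interval -0.30 to 1.73, edgeR adjusted p = 0.738), Il17a by 0.47 (interval -1.06 to 2.0, adjusted p = 0.911) and Il17f by 0.18 (interval -1.33 to 1.68, adjusted p = 0.977). The sign for Il17a and Il17f depended on 1 library: without Maf-KO gut replicate 3 the values were -0.25 and -0.53, and without WT gut replicate 3 they were -0.044 and -0.27. With the replicate number as a block they were 1.68 and 1.07. Il22 kept its sign, at 0.29 without Maf-KO gut replicate 3 and at 0.38 and 1.17 without replicates 3 and 1 of WT gut. It was 1.54 with the replicate-number block, which matches WT and Maf-KO libraries that the labels do not pair. The genotypes did not overlap for Rora, Il21 and Il23r, 3 of 7, beside 36.2% of all genes tested.

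In spleen 0 of 7 passed the edgeR test, beside 0.0151% of all genes, and 1 of 7 had an unadjusted p under 0.05 (376 of 13214 genes). DESeq2 and limma-voom called 0 of 7 as well. That gene was Il21, with a difference of -3.79 (SE 1.17, interval -6.40 to -1.18, edgeR adjusted p = 0.999; over the alternatives the adjusted p was 0.194 to 1). Maf-KO replicate 1 holds all 10 counts of its group, and without it the group is at 0 and the fitted value of -8.73 depends on the prior count and is no bound. Leaving out WT replicate 1 or 3 gave -3.58 and -3.32. Il1r1 differed by 1.20 (interval -0.026 to 2.42), Il23r by 1.71 (interval -0.75 to 4.18) and Rora by 0.19 (interval -0.082 to 0.47), all with an adjusted p of 0.999. Without Maf-KO spleen replicate 1 the Il23r difference was 0.25, and without WT spleen replicate 2 it was 1.09. Il1r1 alone did not overlap between the spleen genotypes, 1 of 7 beside 7.51% of all genes. No fold is given for Il17a, Il17f and Il22, which were at or under the floor in both genotypes.

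**Figure D2:**
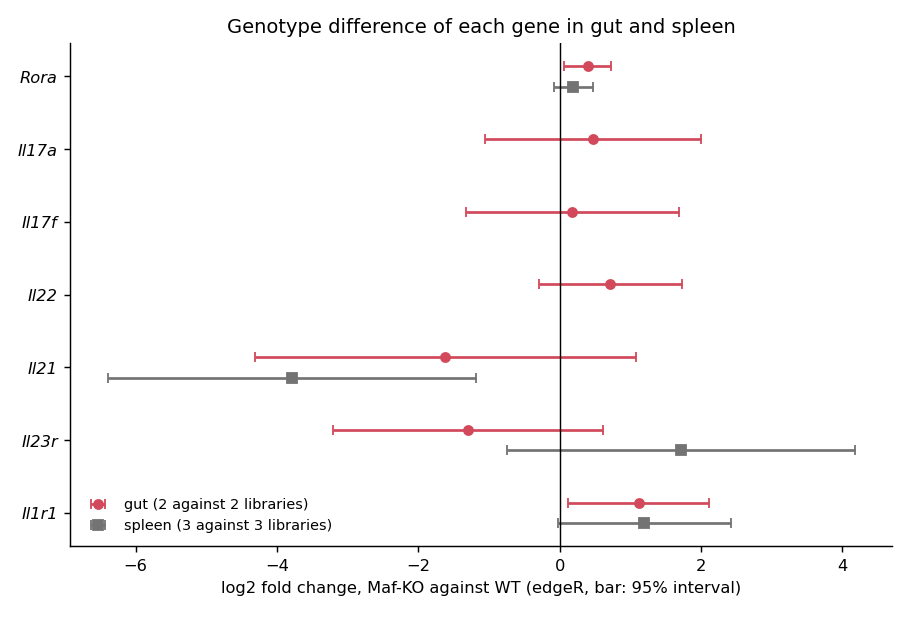
Log2 fold change of Maf-KO against WT for each gene, with circles for gut, squares for spleen and bars for 95% intervals of the edgeR fit. Rora lies at 0.40 in gut and 0.19 in spleen, Il1r1 at 1.12 and 1.20, Il21 at -1.62 and -3.79, and Il23r at -1.30 and 1.71.

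The gut and spleen differences were compared directly. No gene of the 13214 passed the edgeR test of the interaction (0%, with 422 at an unadjusted p under 0.05 and 8 called by DESeq2), and of the 7 genes 0 passed and 0 had an unadjusted p under 0.05. For Il23r the gut difference minus the spleen difference was -3.02 (SE 1.40, interval -6.13 to 0.099, edgeR adjusted p = 1). Without Maf-KO spleen replicate 1 it was -1.55, and with the title block -0.89 (adjusted p = 0.922). Over all alternatives its adjusted p was 0.821 to 1. For Il21 it was 2.17, without Maf-KO gut replicate 3 it was 0.87, and without Maf-KO spleen replicate 1 or with the title block, where the remaining Maf-KO spleen libraries are at 0 and the fit gives no bound, the values were 7.11 and 7.72 (adjusted p over all alternatives 0.174 to 1). It was 0.20 for Rora and -0.081 for Il1r1. Averaged over both tissues, a contrast added after the values had been seen, 0 of 7 passed beside 0.242% of all genes. The numbers with an unadjusted p under 0.05 were 3 of 7 and 1221 of 13214. Il1r1 was 1.16 higher (SE 0.35, edgeR adjusted p = 0.418), Rora 0.30 higher (SE 0.10, adjusted p = 0.441), and Il21 differed by -2.70 (SE 0.85, adjusted p = 0.435). Without Maf-KO gut replicate 3 the Il1r1 value was 0.75. This average was fitted with gut and spleen libraries as independent. Those with the same number in their titles correlated, so its SEs and p-values can be too small.

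Ratios between genes within a library do not depend on how libraries are scaled. They were formed after the values had been seen and are given as descriptions. Il17a held 2.46 and 2.08 counts for each count of Il17f in WT gut and 2.84 and 2.89 in Maf-KO gut. The counting intervals were 1.54 to 4.05 and 1.04 to 4.38 in WT, and 1.66 to 5.08 and 2.06 to 4.12 in Maf-KO. They are wide, so the counts do not show how constant the ratio of these neighbouring genes is. Il22 to Il17a was 1.80 and 2.63 in WT and 2.96 and 2.18 in Maf-KO. Il23r to Il1r1 was 1.14 and 0.934 in WT gut, and 0.306 and 0.157 in Maf-KO gut. The counting intervals of the WT libraries, 0.924 to 1.40 and 0.703 to 1.24, did not reach those of the Maf-KO libraries, 0.232 to 0.398 and 0.126 to 0.193. Il23r to Il17a was 3.09 and 3.67 in WT and 1.37 and 0.772 in Maf-KO, and Il23r to Il22 was 1.72 and 1.39 in WT and 0.463 and 0.355 in Maf-KO. Il1r1 to Il17a was 2.72 and 3.93 in WT and 4.48 and 4.93 in Maf-KO. The 3 ratios with Il23r on top were lower in both Maf-KO gut libraries than in both WT ones, and Il1r1 to Il17a was higher in both. Those 3 ratios share Il23r, which itself did not overlap between the gut genotypes. Of all single genes tested, 36.2% did not overlap there, and no such share was formed for ratios. Counting intervals leave out the spread between samples.

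**Figure D3:**
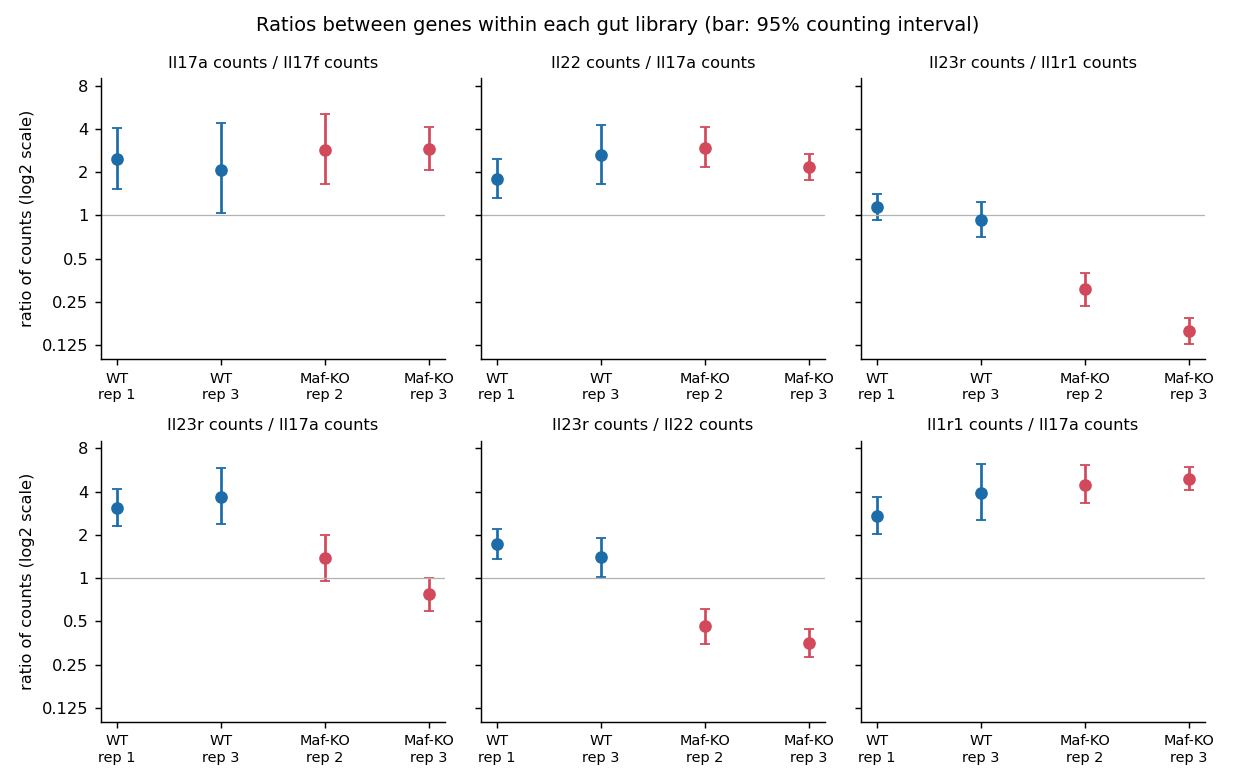
Ratio of the counts of 2 genes within each gut library on a log2 axis, blue for WT and red for Maf-KO, with 95% counting intervals as bars. Il23r over Il1r1 is at 1.14 and 0.934 in WT and 0.306 and 0.157 in Maf-KO. Il17a over Il17f is at 2.08 to 2.89 in the 4 libraries, with intervals that reach from 1.04 to 5.08.

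Gut libraries of 1 genotype also differed in the level of most of these genes. The library named as higher in each pair was picked from these values, so the counts of genes are no test. In WT gut, replicate 1 was above replicate 3 for 6 of the 7 genes, by ratios of 1.27 for Rora to 2.52 for Il17a, and Il21 went the other way (0.390), while replicate 1 was the higher for 48.2% of all genes tested. In Maf-KO gut, replicate 3 was above replicate 2 for all 7, by 1.08 for Rora to 3.98 for Il21, beside 49.8% of all genes. WT gut replicate 1 also had the higher sum of B and plasma cell and of acinar markers of the pair, and Maf-KO gut replicate 3 the lower sum of B and plasma cell markers and the higher sum of acinar markers. Their part in the levels was not tested.

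Genes around the pathway were read from lists. Their counts stand beside 14.7% of all genes called higher and 13.3% called lower, and a count near those shares is not a result about a list. Between gut and spleen of WT mice, 10 of 12 factors that promote Th17 differentiation were higher and 1 lower, with a median log2 difference of 1.97 beside -0.032 over all genes. Among them Rel, an NF-kB subunit, was higher by 3.54, Ahr, the receptor for dietary and microbial ligands, by 1.99, Nfkbiz by 3.86 and Bhlhe40 by 4.70. Of 15 restraining factors tested, 6 were higher and 1 lower (median 0.49), with Fosl2 at 6.10 and Bcl6, the follicular helper factor, at 2.06. Other products of Th17 cells were higher in 9 of 12 and lower in 2 (median 2.69). Il10, which encodes the inhibitory cytokine IL-10, was higher by 6.61, and Ccl20, which encodes the ligand of CCR6, by 7.85. In the list of IL-23 and IL-1 receptor partners, 8 of 17 were higher and none lower (median 0.37), including Il12rb1, the other IL-23 receptor subunit (1.88), and the kinase gene Jak2 (1.46). For IL-6, IL-21 and TGF-beta inputs, 3 of 12 were higher and 3 lower, with Il6ra, the IL-6 receptor, at -3.63. Receptors and adaptors of the Th17 cytokines had 4 of 8 higher and 2 lower (Il17rb 4.98, Il17ra -1.02), and related cytokines and ligands 2 of 7 higher (Ifng 2.16, Il1b 2.27).

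Between the genotypes, 2 genes of these lists passed in gut, both among the other products of Th17 cells and both lower in Maf-KO, beside 0.136% of all genes called lower. Ccl20 fell by 5.01 on the log2 scale (edgeR adjusted p = 0.00473) and Il10 fell by 2.37 (adjusted p = 0.0064). The median of that list was -0.33 over 12 genes, beside -0.0035 over all genes, and the medians of the other 6 lists were -0.10 to 0.22. Stat3, the signal transducer of IL-6, IL-21 and IL-23, differed by 0.42 (adjusted p = 0.693), Il21r by 0.90 (adjusted p = 0.111) and Satb1 by 0.76 (adjusted p = 0.412). In spleen no gene of the 7 lists passed the edgeR test, and Il10 there differed by -1.44 (adjusted p = 0.578).

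**Figure D4:**
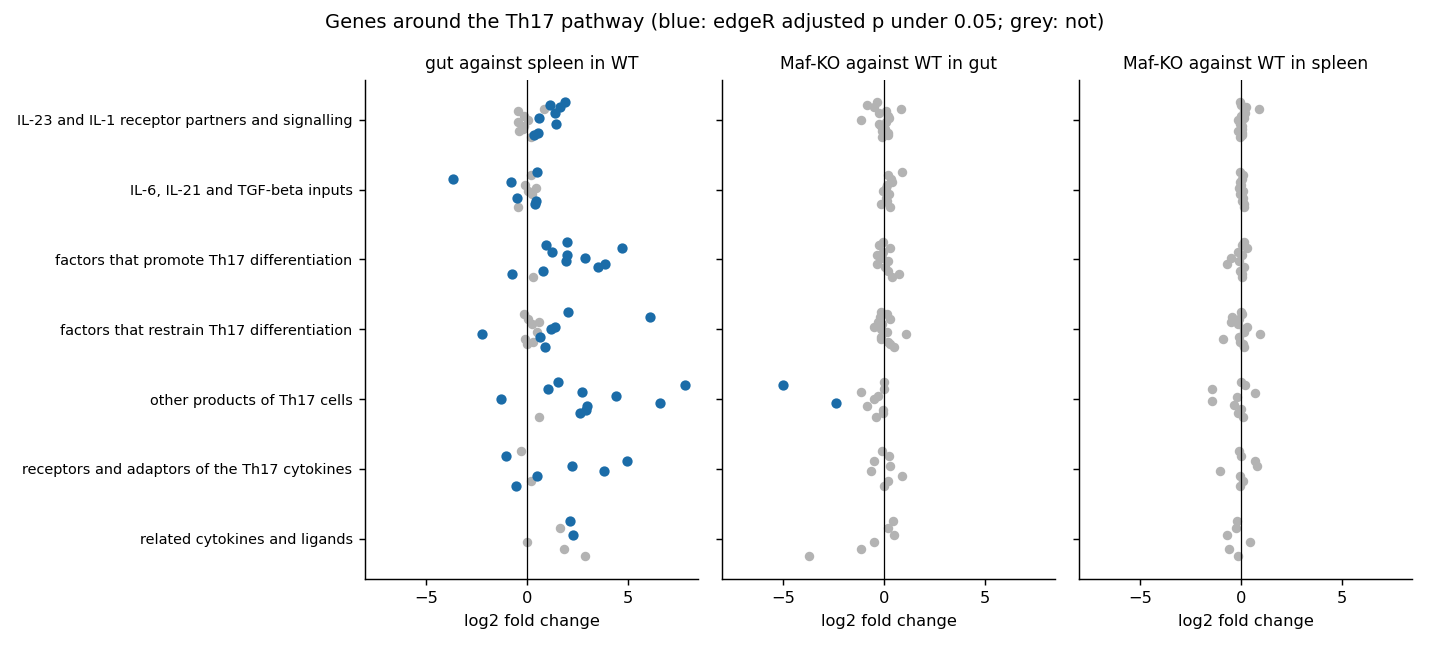
Log2 fold change of each gene of 7 pathway lists in 3 comparisons, blue where the edgeR adjusted p was under 0.05 and grey where not, leaving out genes with 3 or fewer counts in a group. Most blue points lie in the tissue comparison, and in the gut genotype comparison the blue points are Ccl20 at -5.01 and Il10 at -2.37.

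The neighbours of the receptor genes were looked up by distance, within 100 kb. Il12rb2, which encodes a subunit of the IL-12 receptor, lies 46.6 kb from Il23r. It had 176 and 116 counts in WT gut and 49 and 59 in Maf-KO gut (means of 17.9 and 4.49 CPM), with no overlap. The difference was -1.99 (SE 0.39, edgeR adjusted p = 0.126) in gut and -0.14 in spleen, and gut minus spleen was -1.85 (adjusted p = 1). Il1r2, which encodes the decoy receptor for IL-1 and lies 97.2 kb from Il1r1, differed by 0.83 in gut (adjusted p = 0.812) and 0.91 in spleen (adjusted p = 0.999). Its highest spleen library was Maf-KO replicate 1 with 2787 counts, while the other 5 held 613 to 1139.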

How the data were processed

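RNA of sorted regulatory T cells was read from a deposited table of raw counts per Entrez gene, not normalised, and from deposited log2 FPKM values of 12252 genes per library, both made by the authors. Subread, featureCounts, limma and the build GRCm38/mm10 are named by the submitters' processing notes. The sources used here give no tool versions, annotation or strand setting. Totals were 8567035 to 13983965 counts, and 852 entries without a symbol (0.173 to 0.203% of the counts) stayed in. No sample column was left unused.

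Counts were tested with edgeR 4.0.16 under R 4.3.3. The filterByExpr filter kept genes (minimum count 10, minimum total 15, about 1.03 CPM in at least 2 libraries), 13214 in number. After TMM scaling (0.887 to 1.12), all 10 libraries entered 1 quasi-likelihood fit with the 4 groups as terms. Tests were two-sided, adjusted by Benjamini-Hochberg over all genes in a contrast, and called at an adjusted p under 0.05; intervals of fold changes are 95%. Floors, bounds, ratios (Clopper-Pearson) and their intervals cover counting error only; replicates differed by more, with a chi-square of 14.8 to 35.1 per degree of freedom. The fitting code was tested on simulated data. DESeq2 1.42.0, limma 3.58.1 (voom, and trend on log2 FPKM), other filters and scalings, left-out libraries and replicate blocks were alternatives.

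The members and lists were chosen with earlier results of these data known. Called genes of a list were named by adjusted p, up to 4, or up to 2 by unadjusted p where none passed; some were then left out of the text. Gut and spleen libraries with the same number in the sample titles correlated in their deviations from the group means (r = 0.313, 0.255, 0.382 and 0.360), so these numbers pair the samples, though the labels do not say that each is 1 animal. Positions come from RefSeq and GENCODE tables of GRCm38.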

Additional observations from a re-analysis of the deposited data

How the results depend on the processing

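The number of the 7 genes called kept its value or stayed within 1.5 times it in all 112 recomputed counts, over 19 alternatives and 6 contrasts; leaving out 1 library gave 5 to 6 for gut against spleen in Maf-KO, 6 in WT and 0 in each of the other 4. Of 618 recomputed fold changes, 595 kept direction and side of the threshold, 6 lost the call, 1 gained it and 16 changed sign. The cause was not tested. The sign changes, on the log2 scale, were as follows. For the genotype in gut, Il17a went to -0.044 and -0.25 and Il17f to -0.27 and -0.53 without WT or Maf-KO gut replicate 3 (ranges of -0.25 to 1.29 and -0.53 to 0.82 when each library was left out). For Il21 in gut against spleen of WT it went to 0.12 with limma-voom, 0.20 without WT gut replicate 1 and 0.15 without WT spleen replicate 3 (range -1.15 to 0.20). For the Il1r1 interaction it went to 0.38 and 0.44 without gut replicates WT 1 or Maf-KO 2, and 0.10 and 0.30 without spleen replicates WT 2 or Maf-KO 2 (range -0.90 to 0.44). The Il23r difference averaged over tissues, 0.21 as reported, went to -0.060 with limma-voom, -0.14 on log2 FPKM and -0.013, -0.11 and -0.53 without WT gut replicate 3, WT spleen replicate 2 or Maf-KO spleen replicate 1 (range -0.53 to 0.53). Il23r in gut against spleen of Maf-KO also lost its call on log2 FPKM (adjusted p = 0.0862) and with these 2 groups fitted alone (0.0533).

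Counts over all genes moved more. For the genotype in gut, 20 genes became 74 with no filter, 112 with DESeq2, 33 with limma-voom, 12 with the groups alone, and 9 and 42 with the replicate block as a term or as a random effect; without 1 library it was 4 to 22, the lowest without either Maf-KO gut library. In spleen, 2 became 12, 19, 0, 5 on log2 FPKM, 1 alone and 0 with the random block, and 2 to 9 without 1 library, the highest without WT spleen replicate 2. Gut against spleen in Maf-KO went from 3774 to 5778 with the random block and 2118 to 3785 without 1 library, the lowest without Maf-KO gut replicate 3; in WT it was 2183 to 3597, the lowest without WT gut replicate 1. The interaction went from 0 to 8 with DESeq2. The averaged contrast, chosen after seeing the data, went from 32 to 77 with no filter, 126 with DESeq2, 19 and 9 with the replicate block as a term or random effect, and 10 to 30 without 1 library. The replicate block changed no other call of the 7 genes than that of Il21. As a term, it was the replicate number for the genotype contrasts and their average, and the number in the sample titles for the other contrasts. As a random effect it was the number in the sample titles throughout. The same replicate numbers in WT and Maf-KO spleen did not pair (correlations of -0.039, -0.183 and -0.347).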

Other observations

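The genes whose levels followed each member most closely over the 10 libraries were found by Pearson's r of log2 CPM, among genes with a mean of at least 5 CPM. The libraries share 2 tissues, and the gut to spleen difference dominates these values, so they are descriptions with no test. Rora was closest to Cd274 (r = 0.997), which encodes the checkpoint ligand PD-L1, and to Rel and Dusp10 (both 0.996). Il22 was closest to Dusp10 (0.998), Map1lc3a and Ing3 (both 0.997). Il17a was closest to Prdx6 and Il22 (both 0.996), with r = 0.929 for Il22 over the 4 gut libraries. Il17f was closest to Hopx (0.992) and Tgif2 (0.991), and Il1r1 to Fem1b (0.990) and Pqlc1 (0.988), which was also among the genes closest to Il17a (0.994). Il23r was closest to Npnt (0.982) and Dnajc12 (0.979). Il21 had no gene above Sccpdh (0.846), followed by Rnaset2a (0.803).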
